A study of Mus musculus with 12 samples.

Results

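Enhancer bins active at both stages are stretches of 2 kb that carried the active-enhancer mark both in fetal and in adult haematopoietic stem cells (HSCs) of the mouse and carried no active or bivalent promoter mark in either. They were selected from a deposited list of significant Promoter Capture-C contacts, restricted to contacts whose promoter and distal bin lie on the same chromosome. The rule found 7444 contacts among 89545 listed contacts (8.41% of the 88475 within a chromosome). These contacts fell on 5479 distinct bins out of 67766. A further 187 within-chromosome contacts met a bin active in both populations that also carried a promoter mark, and were left out.

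Promoter Capture-C ligates the ends of cross-linked, digested chromatin, enriches the products of chosen promoters and reads out which distal stretches each promoter was joined to. Fetal HSCs came from the liver of B6129SF1 embryos at day 14.5, and adult HSCs from the bone marrow of B6129SF1 mice aged 6 to 8 weeks. Both were sorted as Lin-Sca1+cKit+CD135- cells and digested with DpnII, and each gave 4 libraries, 2 in each of 2 batches (batch 1 and batch 2, the labels' first and second batch). The deposited values are 1 number per population and batch, so no value here has a replicate error, no p-value can be given, and the spread between libraries is unknown for every fetal-adult difference. The labels do not say how many animals were pooled, and the HPC7 cell line samples of the series were not analysed here. The 2 batches captured different promoters, with 19 fragments in common, and were scored at different stringency, so they are given apart where not stated otherwise. The totals above, the bins met by several genes, the runs of adjacent bins and the contacts between chromosomes join both batches.

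Enhancers are DNA stretches that bind transcription factors and raise the transcription of genes that may lie far along the chromosome. An active enhancer is usually recognised by open chromatin flanked by histone H3 carrying acetylated lysine 27 and little promoter-type methylation, and it can be brought near its promoter by looping. Many enhancers of blood stem cells are bound by GATA, ETS, RUNX and E-box factors. HSCs of the fetal liver divide rapidly, whereas most adult bone marrow HSCs are quiescent, and both share the ability to renew themselves and form all blood lineages.

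The sorted populations carried HSC transcripts. Kit, which encodes the cKit of the sort, and Cd34, Mecom, Hlf and Gata2, HSC genes outside the sort, each had a captured promoter. They had 9.84 to 36.3 FPKM in fetal and 10.7 to 57.3 FPKM in adult cells, and Flt3, which encodes the gated-out CD135, had 6.20 and 3.81 FPKM. Lineage markers, not all of them limited to mature cells, differed between the populations in the same expression values. The 7 captured erythroid markers summed to 94.2 FPKM in fetal and 18.1 in adult cells, the 7 macrophage markers to 46.8 and 2.74, the 4 granulocyte markers to 80.6 and 6.11, and the 3 megakaryocyte markers to 21.6 and 161. No captured marker was listed at 0 in both populations. T cell, B cell and hepatocyte markers were not among the captured promoters. The part of these cell types in the contact maps was not tested.

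The promoters that met the most bins of this kind were those of Ube2v1, Ptma, Suv39h2 and Cebpb, among genes with a single RefSeq start and a single captured fragment. Their core promoter sequences are shown as those of the promoters with the most contacts, and not as typical of all that met such bins. Each run covers 250 bases before to 50 bases after the RefSeq start in GRCm38.p6, read in the direction of the gene. Capitals mark every match, on either strand, to the GC box GGGCGG, the ETS motif CCGGAAG, the E-box CAGCTG or the TATA box TATAAA, with overlapping matches run together. The positions are chr2:167631956-167632255 on the minus strand for Ube2v1, chr1:86526307-86526606 on the plus strand for Ptma, chr2:3474937-3475236 on the minus strand for Suv39h2 and chr2:167688665-167688964 on the plus strand for Cebpb.
Ube2v1: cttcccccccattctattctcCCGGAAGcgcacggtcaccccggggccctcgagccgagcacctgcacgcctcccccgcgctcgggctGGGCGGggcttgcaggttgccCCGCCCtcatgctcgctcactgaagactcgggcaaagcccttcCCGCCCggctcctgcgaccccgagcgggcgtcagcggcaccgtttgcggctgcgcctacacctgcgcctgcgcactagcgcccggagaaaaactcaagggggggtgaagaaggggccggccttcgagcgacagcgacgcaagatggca
Ptma: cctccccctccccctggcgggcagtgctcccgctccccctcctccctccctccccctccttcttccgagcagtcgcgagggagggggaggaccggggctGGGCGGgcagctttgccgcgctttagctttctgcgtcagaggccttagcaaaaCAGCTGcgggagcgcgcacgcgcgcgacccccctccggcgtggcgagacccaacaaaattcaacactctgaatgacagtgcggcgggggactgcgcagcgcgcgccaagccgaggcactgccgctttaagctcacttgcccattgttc
Suv39h2: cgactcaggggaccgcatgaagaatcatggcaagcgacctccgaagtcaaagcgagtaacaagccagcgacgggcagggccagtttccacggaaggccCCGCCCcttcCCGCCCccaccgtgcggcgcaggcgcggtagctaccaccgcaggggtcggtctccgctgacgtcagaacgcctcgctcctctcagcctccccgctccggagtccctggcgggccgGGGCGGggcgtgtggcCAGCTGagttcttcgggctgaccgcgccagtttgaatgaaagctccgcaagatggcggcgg
Cebpb: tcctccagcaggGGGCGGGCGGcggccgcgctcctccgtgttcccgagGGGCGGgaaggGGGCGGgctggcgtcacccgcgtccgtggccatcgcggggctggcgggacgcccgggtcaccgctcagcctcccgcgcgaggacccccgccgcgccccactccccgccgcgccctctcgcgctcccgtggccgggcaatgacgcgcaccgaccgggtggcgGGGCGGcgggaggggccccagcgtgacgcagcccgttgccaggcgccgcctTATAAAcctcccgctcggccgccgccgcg

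All 4 promoters were rich in G and C, at 70.3% (Ube2v1), 68.0% (Ptma), 68.3% (Suv39h2) and 80.7% (Cebpb), against a median of 52.7% over the 32851 RefSeq promoters of the same length. The GC box, present in 35.7% of all promoters, occurred in each of the 4, with 3 matches in Ube2v1, 1 in Ptma, 3 in Suv39h2 and 5 in Cebpb. The ETS motif, held by 8.86% of all promoters, occurred once, in Ube2v1. CAGCTG, held by 16.3%, occurred in Ptma and in Suv39h2, and TATAAA, held by 13.6%, in Cebpb. The letters of the GATA motif AGATAA (11.2% of all promoters), the RUNX motif TGTGGT (16.8%), the E-box CAGATG (17.2%) and the DpnII site GATC (48.0%) were absent from these 4 windows on both strands. A match is a description of letters and shows no binding. Of 1890 genes in contact with such bins, 1727 matched RefSeq by symbol and 155 by synonym.

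In batch 1, 4114 of 49290 within-chromosome contacts (8.35%) met a bin active at both stages, and in batch 2, 3330 of 39185 (8.50%). These contacts came from 1134 of 1939 promoters (58.5%) in batch 1 and from 935 of 1814 (51.5%) in batch 2. The median such promoter had 3 contacts in batch 1 and 2 in batch 2, and 336 and 270 promoters had a single one. A small set of promoters held a large part of the contacts. The 62 promoters of batch 1 with at least 10 contacts held 21.0% of them, and the 58 of batch 2 held 21.1%.

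A contact was called in a population where its deposited score was above 0. In batch 1, 2574 of the contacts were called in fetal cells (62.6%, against 64.3% of all within-chromosome contacts) and 2806 in adult cells (68.2%, against 61.0%). Both populations called 1266 (30.8%, exact 95% binomial interval 29.4 to 32.2), against 25.3% of all contacts. Fetal cells alone called 1308, where 39.0% of all contacts were of that class, and adult cells alone 1540, against 35.7%. In batch 2, 2321 were called in fetal cells (69.7%, against 70.7% of all) and 2455 in adult cells (73.7%, against 66.0%). Both populations called 1446 (43.4%, 41.7 to 45.1), against 36.7%. Fetal cells alone called 875, against 34.0% of all contacts, and adult cells alone 1009, against 29.3%. The shares called in adult cells and in both populations lay above the background, while the share called in fetal cells was near it. These intervals reflect counting error alone and are narrower than they should be, since neighbouring bins and contacts of 1 promoter are not independent.

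Bins with no active mark, no open-chromatin mark and no promoter mark (unmarked bins below) serve as a comparison. They were called in both populations in 16.9% (16.4 to 17.4) and 27.3% (26.6 to 28.1) of cases. Open bins with no active mark had 26.6% and 37.3%, bins active in fetal cells only 28.7% and 40.7%, and bins active in adult cells only 28.0% and 38.8%. Bins with a promoter mark had the highest shares, at 38.2% and 49.2%. The intervals of bins active at both stages lay above those of open bins with no active mark (25.8 to 27.4 and 36.4 to 38.2) and below those of promoter-marked bins (37.2 to 39.2 and 48.1 to 50.3). They overlapped those of bins active in fetal cells only (26.8 to 30.8 and 38.3 to 43.3) and, in batch 1, of bins active in adult cells only (25.8 to 30.4).

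The gap to unmarked bins was also present within the distance ranges that held most contacts. Between 60 and 150 kb from the promoter, 37.7% (35.2 to 40.2) of 1474 contacts with bins active at both stages were called in both populations in batch 1, against 21.9% at unmarked bins. In batch 2 it was 50.0% (47.5 to 52.5) of 1608 contacts, against 29.8%. Between 20 and 60 kb the shares were 36.5% against 21.4% in batch 1 and 42.3% against 27.1% in batch 2. Between 150 and 300 kb they were 25.1% against 15.8%, and 35.0% against 22.7%. From 300 to 600 kb the gap was 22.7% against 9.93% in batch 1, whereas in batch 2 the interval at 148 contacts (12.4 to 25.4) held the 14.2% of unmarked bins. Below 20 kb and above 600 kb batch 2 had 10 and 18 such contacts, too few to place.

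**Figure D1:**
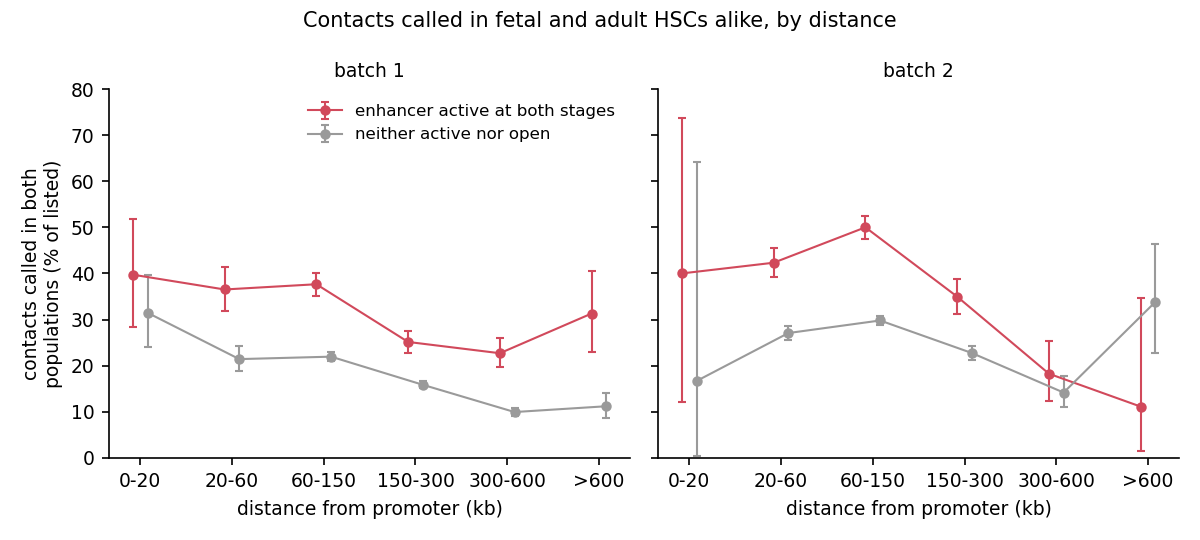
Share of listed contacts called in both populations (%), by distance between promoter and bin (kb), for bins with an enhancer active at both stages (red) and bins neither active nor open (grey) in each batch. Points are shares and bars exact 95% binomial intervals; the red points lie above the grey ones in every class from 20 to 300 kb, at 37.7% against 21.9% and 50.0% against 29.8% between 60 and 150 kb.

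Contacts with bins active at both stages lay a median of 158 kb from the promoter in batch 1 (quartiles 91.1 and 267 kb) and 87.8 kb in batch 2 (57.2 and 143 kb). All other within-chromosome contacts had medians of 174 and 92.4 kb. Within the set, fetal-specific contacts reached farthest, with medians of 191 and 125 kb. Contacts called in both populations had medians of 133 and 79.6 kb, and adult-specific contacts 145 and 63.0 kb. 2 contacts had an infinite score in at least 1 population, with very high counts over long distances. In batch 1 Hmgn1, which encodes a nucleosome-binding protein, met a bin 2567 kb away with 12192 fetal and 7418 adult counts. In batch 2 Tdg, a DNA glycosylase gene, met a bin 40316 kb away with 16100 fetal and 12953 adult counts. Both stand far outside the median of 10 and 29 fetal counts per contact, and their origin was not tested.

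The median contact specific to a population was also counted in the other. In batch 1 the median fetal-specific contact had 10 fetal and 5 adult counts, and adult-specific contacts 11 adult and 6 fetal counts. In batch 2 the medians were 26 fetal and 15 adult, and 29 adult and 21 fetal. Contacts called in both had 16 fetal and 15 adult counts in batch 1, and 39 and 34 in batch 2. A specific contact is thus one that passed the calling score in 1 population, and most were not absent from the other. Single ones had no count there. In batch 1 a contact of 4933411K20Rik had 6 fetal and 0 adult counts, and one of Foxo3 had 0 fetal and 6 adult counts.

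The ratio of fetal to adult counts was taken as log2((fetal + 1)/(adult + 1)), less the log2 ratio of the batch's summed counts over listed within-chromosome contacts (0.23 in batch 1, 0.15 in batch 2). On this scale the median contact with a bin active at both stages stood at -0.23 in batch 1 and -0.01 in batch 2, against -0.09 and 0.08 over all within-chromosome contacts. Without scaling the medians were 0.00 and 0.14, against 0.14 and 0.23. The set lay on the adult side of all contacts, on either scale by construction, since scaling shifts all contacts of a batch alike. Its sign depended on the scaling. Against other contacts of the same distance class its medians were -0.078 and -0.065. In batch 1, 345 contacts (8.39%) had at least 2-fold more fetal counts after scaling, where 12.8% of all contacts did, and 735 (17.9%) had at least 2-fold more adult counts, against 18.8%. In batch 2 the numbers were 209 (6.28%, against 9.49%) and 190 (5.71%, against 5.98%). The shares with a large fetal excess lay below the background, and those with a large adult excess near it.

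Among the contacts called in only 1 population, the fetal-specific share over all distances went with the expression of the promoter's own gene. It also varied with distance, as given below. FPKM, the deposited expression value per kilobase of transcript and per sequenced read total, comes from another assay, and in bulk RNA fewer cells of a type and less RNA per cell cannot be told apart. In batch 1 fetal-specific contacts were 57.5% (49.6 to 65.1) of those at the 68 promoters whose FPKM + 1 was at least 2-fold higher in fetal cells. The share was 46.0% at promoters within 2-fold and 40.6% (35.7 to 45.7) at the 147 promoters at least 2-fold higher in adult cells. In batch 2 the shares were 58.5% (51.3 to 65.4; 106 promoters), 46.4% and 38.9% (33.5 to 44.5; 141 promoters). The promoter sets of the batches differed in expression. Keeping only promoters marked as differentially expressed left the median log2 FPKM ratio of batch 2 at -0.39 with the same interval. The restriction thus appears to have left out no promoter of batch 2. In batch 1 the median moved from 0.00 to -0.57. Counting promoters in place of contacts, those with more fetal-specific than adult-specific contacts numbered 31 against 20 where the gene was higher in fetal cells and 43 against 74 where it was higher in adult cells in batch 1. In batch 2 they numbered 48 against 29 and 26 against 70.

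Unmarked bins showed a smaller range over the same 3 expression classes, with 56.8%, 55.0% and 54.3% fetal-specific in batch 1 and 58.8%, 55.8% and 54.0% in batch 2. Open bins without an active mark gave 52.3%, 52.3% and 52.8%, then 55.7%, 55.0% and 51.7%. Bins active at both stages thus lay below unmarked bins at genes that were not higher in fetal cells. The difference between the 2 kinds of bin was not tested. At genes higher in adult cells and distances of 60 to 150 kb, 28.1% (21.1 to 35.9) of specific contacts were fetal in batch 1, against 43.6% at unmarked bins, and 49.2% (40.4 to 58.1) in batch 2, against 64.9%. At genes higher in fetal cells and the same distance the values were 55.8% against 51.0% and 65.9% against 72.1%, with intervals that overlapped. At these genes the share was lower near the promoter. Below 60 kb it was 38.9% (17.3 to 64.3) against 32.4% in batch 1 and 21.4% (11.6 to 34.4) against 17.7% in batch 2. Above 150 kb in batch 1 it was 61.9% (51.4 to 71.5) against 61.4%. In other distance ranges the gap at genes higher in adult cells was smaller or its intervals overlapped. Below 60 kb the values were 23.1% against 22.1% in batch 1 and 8.74% (4.07 to 15.9) against 15.8% (12.5 to 19.6) in batch 2. Above 150 kb they were 56.4% (48.8 to 63.8) against 61.9% (59.2 to 64.6) and 60.2% (48.9 to 70.8) against 73.4% (68.6 to 77.8). The fall with expression was also absent above 150 kb in batch 1 between genes within 2-fold (53.2%) and genes higher in adult cells (56.4%). Erythroid, macrophage and granulocyte marker sums were higher in fetal and megakaryocyte markers in adult FPKM, as given above, and the part of such cells in this pattern was not tested.

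**Figure D2:**
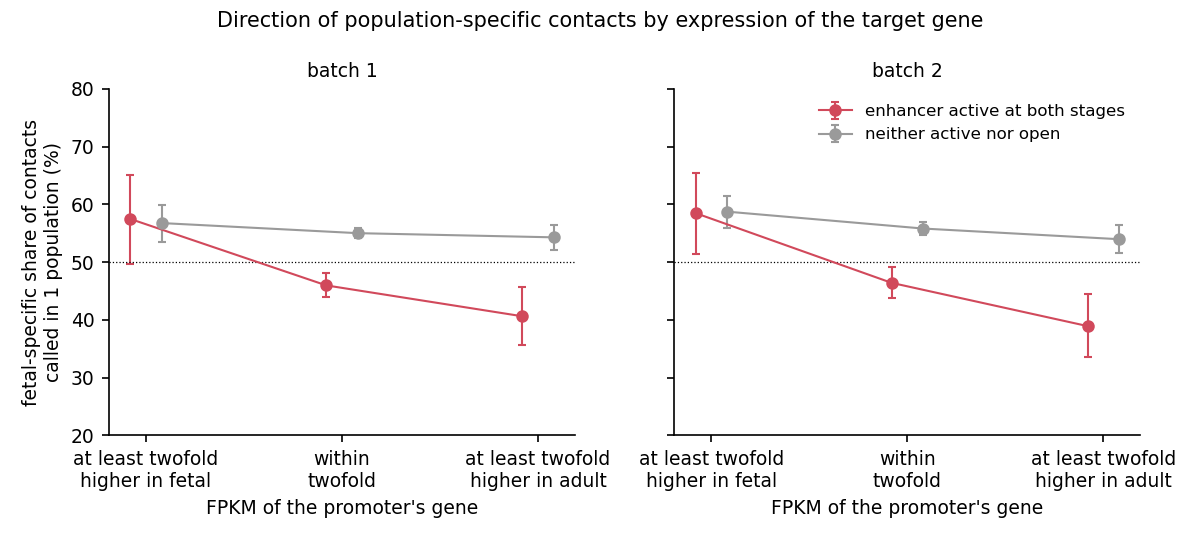
Fetal-specific share (%) of contacts called in 1 population, by the FPKM of the promoter's gene, for bins with an enhancer active at both stages (red) and bins neither active nor open (grey) in each batch. Points are shares and bars exact 95% binomial intervals; the red points fall from 57.5% to 40.6% in batch 1 and from 58.5% to 38.9% in batch 2, the grey ones from 56.8% to 54.3% and from 58.8% to 54.0%.

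Promoters with more contacts of this kind had higher FPKM in both populations. In batch 1 the median rose from 6.67 FPKM in fetal and 8.01 in adult cells at 805 promoters with none to 13.7 and 17.1 at the 62 promoters with at least 10. In batch 2 it rose from 2.24 and 3.15 to 4.55 and 7.74. Across promoters, which are not replicates, Spearman's rho between the number of such contacts and FPKM was 0.17 in fetal and 0.16 in adult cells in batch 1, and 0.16 in both in batch 2. The number of contacts of any kind rose along with it, from a median of 8 to 68 and from 7 to 58.5 per promoter, with rho of 0.65 and 0.64, and its part in the relation was not tested.

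Over promoters with at least 5 contacts of this kind, the summed count ratio followed expression loosely. Spearman's rho between the scaled log2 count ratio and the log2 FPKM ratio was 0.16 over 298 promoters of batch 1 and 0.21 over 244 of batch 2. Contacts of the same promoters with all other bins gave 0.12 and 0.22. The count ratio at these promoters ranged from -1.67 to 1.02 in batch 1 and from -0.74 to 0.96 in batch 2. The scatter includes genes with very large expression differences and even counts, such as Fos, Jun and Igf2_2, while Igf2_1, with 3 contacts, is not in it.

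**Figure D3:**
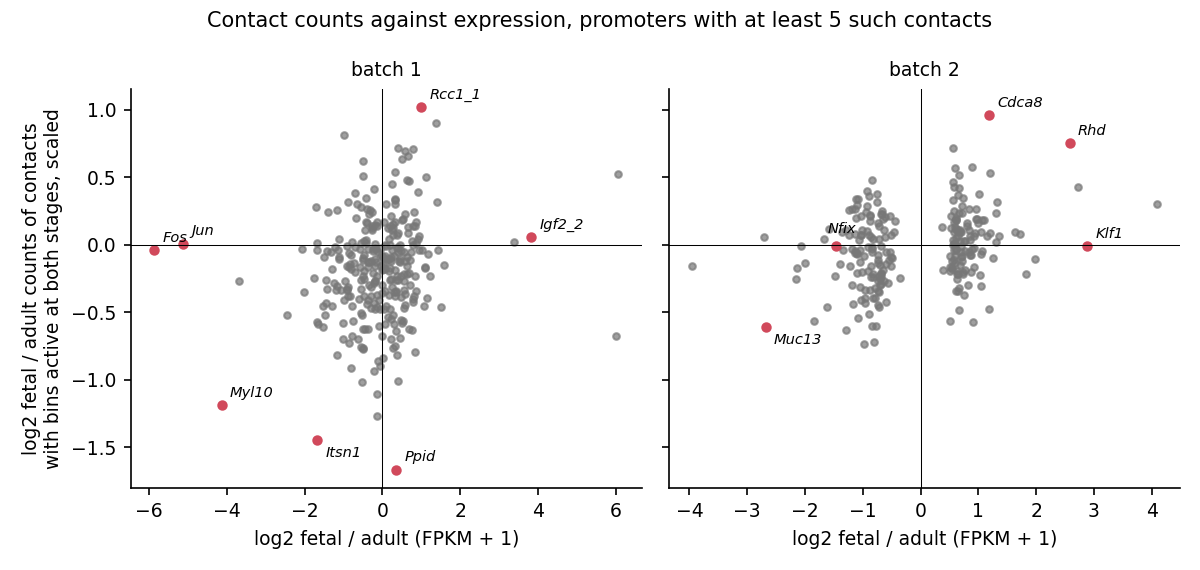
Each point is a promoter with at least 5 contacts with bins active at both stages. The x axis is the log2 ratio of fetal to adult FPKM + 1 and the y axis the log2 fetal/adult ratio of the counts summed over those contacts, scaled by batch totals; Ppid (-1.67) and Rcc1_1 (1.02) mark the ends in batch 1, and Fos and Jun lie at the far left near a count ratio of 0.

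Rreb1, a zinc-finger transcription factor gene linked to Ras signalling (chr13:37917387-37918941, mm9 as all coordinates below), had the most contacts of batch 1. Its 26 contacts comprised 7 called in both populations, 10 in fetal cells alone and 9 in adult cells alone, with 338 fetal and 311 adult counts. All but 1 lay on the side of lower coordinates, 47.2 to 375 kb away. Its FPKM was 7.16 in fetal and 4.0 in adult cells. Ube2v1, which encodes a partner of a ubiquitin-conjugating enzyme, had 23 contacts, 13 of them in both populations, with 435 and 371 counts and 68.6 and 49.7 FPKM.

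Lsg1_1, where the suffix numbers an alternative promoter of a gene and Lsg1 encodes a GTPase of ribosome assembly, had 20 contacts. Of these 17 were called in both populations, 3 in adult cells alone and 0 in fetal cells alone, with 321 fetal and 327 adult counts. They lay far off, at 338 to 648 kb, and the strongest of them in adult cells, 484 kb away, had 28 fetal and 37 adult counts with scores of 13.1 and 22.0. Ddx5, an RNA helicase gene, had as many contacts with a different make-up, 3 in both, 6 fetal-specific and 11 adult-specific, with 191 fetal and 170 adult counts at 72.2 and 133 FPKM. Equal numbers of contacts thus went with 17 shared contacts at Lsg1_1 and 3 at Ddx5.

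Ptma, which encodes the abundant nuclear protein prothymosin alpha, had 18 contacts, all on 1 side, with a median distance of 46.1 kb. They made up 66.7% of its 27 listed contacts, the highest share among the 8 promoters of batch 1 with the most such contacts. Counts were 667 fetal and 584 adult at 1009 and 852 FPKM, and 12 of the 18 were called in both. Ino80e, a subunit gene of the INO80 chromatin remodeller, had 18 with 7 in both, 300 and 296 counts and 51.1 and 31.3 FPKM. Runx1, whose product is needed for HSCs to arise in the embryo, had 18 with 5 in both, 6 fetal-specific and 7 adult-specific, 260 and 278 counts and 7.76 and 11.8 FPKM. Each of these 7 promoters had contacts called in both populations.

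Runx3, a Runx family transcription factor gene (chr4:134676299-134677098), had the most contacts of either batch. Its 29 contacts comprised 18 shared by both populations, 1 fetal-specific and 10 adult-specific, with 1342 fetal and 1525 adult counts (scaled log2 ratio -0.34). Its FPKM was 4.50 in fetal and 9.71 in adult cells. The contacts lay 21.7 to 158 kb away, 22 on one side and 7 on the other, and 7 adjacent bins at chr4:134630001-134644001 formed an unbroken run of 14 kb. Contacts of Runx3 with other bins had 999 fetal and 966 adult counts, a scaled ratio of -0.10.

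Nfix, which encodes a nuclear factor I protein, was the single promoter among these 15 whose contacts were all called in both populations. Its 17 contacts, all on 1 side at 55.0 to 161 kb, had 1285 fetal and 1162 adult counts, a scaled log2 ratio of -0.01. Its FPKM was 4.39 in fetal and 13.8 in adult cells. The strongest bin, 77.0 kb away, had 215 fetal and 187 adult counts. Nsmce1, a subunit gene of the SMC5/6 complex, came close with 16 of 18 contacts in both populations, 769 fetal and 603 adult counts and 15.8 and 10.0 FPKM. Expression differed between the populations in opposite directions at Nfix and Nsmce1 while nearly all their contacts were shared.

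Cdk19, a kinase gene of the Mediator complex, had 19 contacts with 14 in both, 623 and 691 counts and 4.65 and 8.17 FPKM. Suv39h2, a histone H3 lysine 9 methyltransferase gene, had 19 with 7 in both, 7 fetal-specific and 5 adult-specific, 469 and 482 counts and 1.94 and 1.26 FPKM. Cebpb, a transcription factor gene of myeloid cells, had 17 with 9 in both, 6 fetal-specific and 2 adult-specific, 754 and 566 counts and 7.81 and 3.93 FPKM. Plagl2, a zinc-finger gene, had 16 with 4 in both, 647 and 521 counts and 7.88 and 4.08 FPKM. Gfod1 had 16 with 8 in both, 630 and 491 counts and 0.49 and 1.28 FPKM. Among the 8 promoters of batch 2, Cebpb leaned farthest to fetal counts (scaled log2 ratio 0.26) and Runx3 farthest to adult counts. Contacts of Cebpb with other bins leaned as far, at 0.28.

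**Figure D4:**
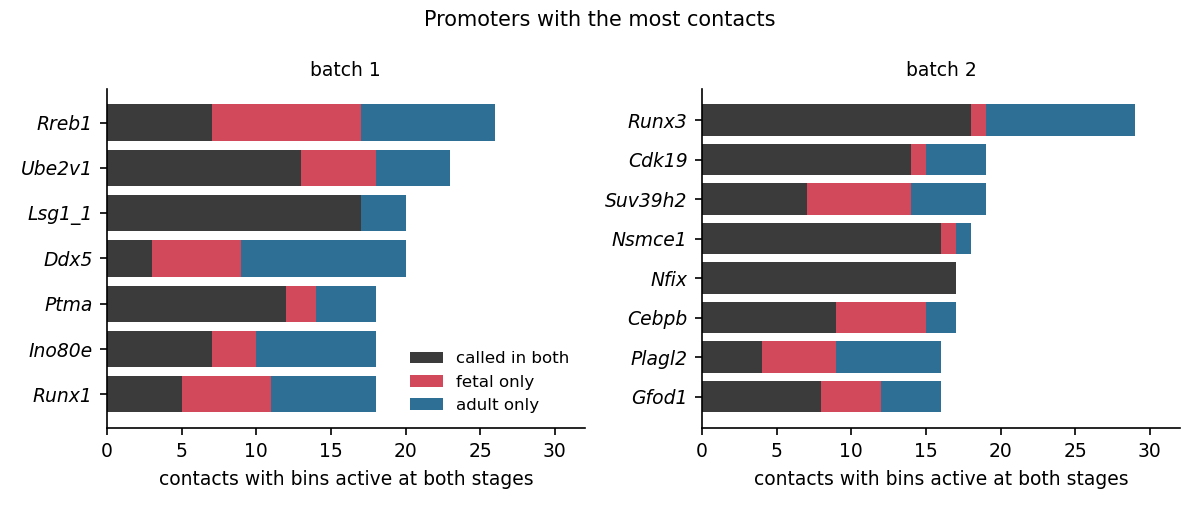
Number of contacts with bins active at both stages for 7 of the 8 promoters with the most in batch 1 and the 8 with the most in batch 2, split into contacts called in both populations (dark), in fetal cells only (red) and in adult cells only (blue). Runx3 has 29, of which 18 were called in both, and all 17 of Nfix were called in both, whereas 3 of 20 were at Ddx5.

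The promoters whose contacts of this kind leaned most to one population, among those with at least 5, had small counts in batch 1. The largest fetal leaning was at Rcc1_1 (a promoter of the Ran nucleotide exchange factor gene), with 49 fetal and 20 adult counts over 5 contacts, all fetal-specific, a scaled log2 ratio of 1.02 and 24.2 and 11.6 FPKM. Hsph1, a heat shock protein gene, followed with 32 and 14 counts (0.91) and 37.6 and 13.8 FPKM, 4933411K20Rik with 32 and 15 counts (0.81) and 2.49 and 5.92 FPKM, and Rpl7a, a ribosomal protein gene, with 53 and 27 counts (0.72) and 385 and 292 FPKM. The largest adult leaning was at Ppid, a cyclophilin gene, with 16 and 45 counts (-1.67) and 29.5 and 22.9 FPKM. Itsn1, an endocytic scaffold gene, had 60 and 141 counts (-1.45) and 6.51 and 23.1 FPKM, Foxo3 18 and 38 counts (-1.27) and 10.1 and 11.1 FPKM, and Myl10, a myosin light chain gene, 33 and 65 counts (-1.19) and 0.51 and 25.3 FPKM. Expression leaned the same way as the counts at 6 of these 8, all but 4933411K20Rik and Ppid, with nearly equal FPKM at Foxo3. Contacts of the same promoters with other bins had scaled ratios of 0.05 (Rcc1_1), -0.15 (Hsph1), 0.17 (4933411K20Rik) and -0.05 (Rpl7a). On the adult side these were -0.26 (Ppid), -0.88 (Itsn1), -0.34 (Foxo3) and -0.71 (Myl10). Over all promoters of batch 1 with at least 5 such contacts, the scaled ratio was above 0 at 6 of 17 whose FPKM + 1 was at least 2-fold higher in fetal cells, and below 0 at 33 of 39 at least 2-fold higher in adult cells. At promoters within 2-fold it was above 0 at 69 of 242 and below 0 at 173. On this scale, whose zero is the ratio of batch totals, most promoters thus leaned to adult counts in every expression class. Their contacts with other bins lay below that zero as well, with a median of -0.12 against -0.16 over the 298 promoters. By class the medians were -0.06 against -0.07 at genes higher in fetal cells and -0.14 against -0.27 at genes higher in adult cells.

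In batch 2 the counts were higher and the leaning smaller. Cdca8, which encodes a subunit of the chromosomal passenger complex of mitosis, had 211 fetal and 97 adult counts over 7 contacts (0.96), of which 6 were fetal-specific and 1 was called in both, at 25.4 and 10.7 FPKM. One of its bins, 181 kb away, had 29 fetal and 2 adult counts. Rhd, the Rhesus blood group gene of red cells, had 162 and 86 counts (0.75) at 8.76 and 0.63 FPKM, Zmynd19 165 and 90 (0.72) at 11.3 and 7.35 FPKM, and Ugcg, the glucosylceramide synthase gene, 143 and 86 (0.58) at 13.1 and 6.58 FPKM. On the adult side stood Arhgap26, a GTPase-activating protein gene, with 134 and 202 counts (-0.74) at 0.55 and 2.07 FPKM. Deptor, an inhibitor of mTOR, had 179 and 266 (-0.72) at 1.26 and 2.95 FPKM. Itga6, an integrin gene expressed on HSCs, had 137 and 192 (-0.64) at 5.22 and 14.3 FPKM. Muc13, a mucin gene, had 250 and 344 (-0.61) at 5.36 and 39.8 FPKM. All 8 had FPKM higher in the population with more counts, though they are the extremes. All 8 were also marked as differentially expressed, but this does not set them apart. Keeping only marked promoters of batch 2 with such a contact left their median FPKM ratio and its interval unchanged. Over all promoters of batch 2 with at least 5 such contacts, the scaled ratio was above 0 at 17 of 26 whose FPKM + 1 was at least 2-fold higher in fetal cells and below 0 at 28 of 47 at least 2-fold higher in adult cells. At promoters within 2-fold it was above 0 at 77 of 171 and below 0 at 94. The 6 bins of Muc13 were all called in adult cells and 2 of them also in fetal cells, the most unequal with 11 fetal and 44 adult counts.

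**Figure D5:**
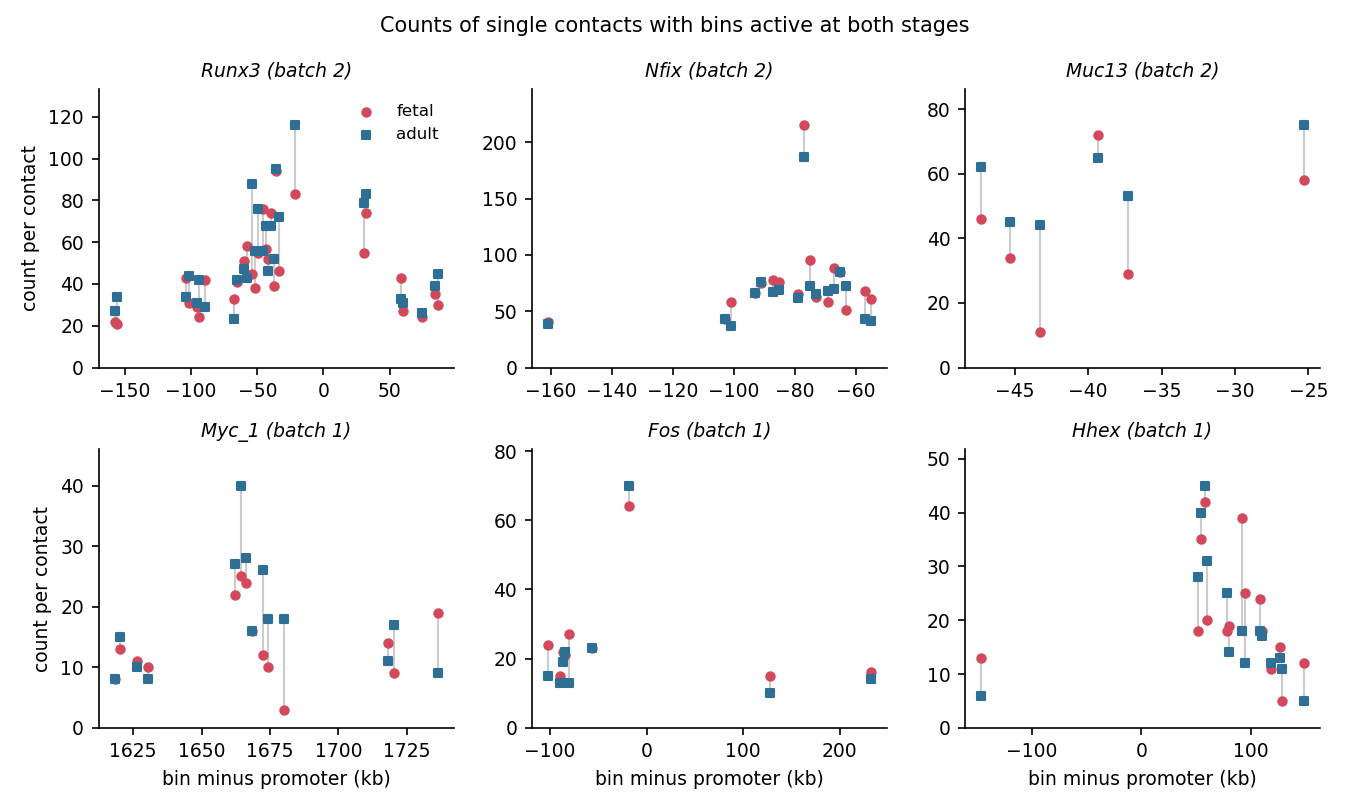
Count of each contact with a bin active at both stages in fetal (red circles) and adult (blue squares) cells, unscaled, against the position of the bin relative to its promoter (kb), for 6 promoters. Each listed contact has a fetal and an adult count, whether or not it was called in that population. At Nfix the strongest bin had 215 fetal and 187 adult counts, at Myc_1 all bins lay 1618 to 1736 kb away, and at Muc13 1 bin had 11 fetal and 44 adult counts.

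Single contacts were ranked by the lower of their scores in the populations, which selects contacts strong in each. The 2 contacts with an infinite score, of Hmgn1 and Tdg, were left out of this ranking. Among contacts with finite scores the highest lower score of batch 1 was at Meis1_1, a promoter of the homeobox gene that sustains HSCs, with a bin 143 kb away (86 fetal and 39 adult counts, scores 88.2 and 28.1). Its scaled log2 ratio was 0.89 while FPKM was 15.7 in fetal and 35.3 in adult cells. Calcrl, a peptide hormone receptor gene, met a bin 405 kb away (30 and 28 counts). Ptma met one at 84.1 kb (80 and 58), and Cdkn1c, a cell cycle inhibitor gene, one at 308 kb (42 and 37). In batch 2 Pfkfb3, a regulator of glycolysis, met 2 adjacent bins, at 171 kb (237 and 239 counts, scores 118 and 113) and 169 kb (140 and 160). Lyrm5 met a bin at 129 kb (133 and 112), Znrf1, a ubiquitin ligase gene, one at 60.1 kb (151 and 126), and Tnfaip8_1 one at 49.7 kb (128 and 118). All 9 of these bins were open in both populations.

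Transcription factor genes of HSCs and progenitors held several of the longest series of such contacts. Of 38 listed genes 28 were captured in batch 1. There 33 of their 44 promoters (75.0%) had at least 1 contact of this kind, against 58.5% of all promoters, and 15 had at least 5 (34.1%, against 15.4%). Of the 185 contacts 76 were shared by both populations (41.1%, against 30.8% of all such contacts of the batch), 36 in fetal cells alone and 73 in adult cells alone. The median scaled log2 count ratio over the 33 promoters was -0.38, against -0.23 over all 1134, and it was -0.15 without scaling. In batch 2, 6 of 7 captured promoters had at least 1 (85.7%, against 51.5% of all promoters) and 3 had at least 5 (42.9%, against 13.5%). There the median lay on the other side, at 0.18 scaled against 0.00 over all 935 promoters with such a contact, and 27 of 64 contacts (42.2%) were shared, near the 43.4% of all. These lists were chosen with results of these data known.

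Runx2_1 had 17 contacts (7 both, 1 fetal, 9 adult) with 238 fetal and 301 adult counts at 3.70 and 14.1 FPKM, and Runx2_2, another promoter of this Runx gene, had 5 with 32 and 29 counts. Hhex, a homeobox gene of blood and liver, had 15 (11 both, 2 fetal, 2 adult) with 314 and 295 counts at 29.6 and 29.3 FPKM. Ikzf1, the lymphoid regulator Ikaros, had 14 (7 both, 2 fetal, 5 adult) with 293 and 259 counts at 27.0 and 15.9 FPKM. Meis1_1 had 14 (8 both, 3 fetal, 3 adult) with 360 and 327 counts. Hhex had the most even expression of these, and its scaled log2 count ratio of -0.14 lay beside -0.05 at Ikzf1, -0.09 at both Meis1_1 and Runx2_2 and -0.57 at Runx2_1.

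Prdm16, a zinc-finger gene required for HSC maintenance, had 9 contacts, 3 in both and 6 in adult cells alone, with 113 and 143 counts at 3.57 and 6.69 FPKM. Tal1, a master regulator of blood formation, had 9 (4 both, 2 fetal, 3 adult) with 421 and 432 counts at 26.7 and 30.4 FPKM. They included a group 32.9 to 40.9 kb on one side, where the strongest bin, 38.9 kb away, had 46 fetal and 66 adult counts. Myb, needed for definitive blood formation, had 8 (2 both, 1 fetal, 5 adult) with 116 and 153 counts at 39.0 and 50.3 FPKM. Of the homeobox gene Hoxa9, promoter Hoxa9_2 had 7 with 99 and 86 counts and Hoxa9 had 5 with 57 and 75, reaching 1057 and 1062 kb. Cbfa2t3_1, a promoter of a corepressor gene, had 6 with 239 and 270 counts. Hlf and Hlf_1, promoters of a bZIP gene of HSCs, had 5 each, with 61 and 74 and with 98 and 120 counts. Nfe2_2, a promoter of a megakaryocytic and erythroid factor gene, had 5 with 155 and 139 counts. Adult-specific contacts outnumbered fetal-specific ones at Prdm16, Myb and Runx2_1, and the numbers were nearer to each other at Tal1.

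In batch 2 Klf1, the erythroid Krüppel-like factor gene, had 11 contacts, 0 called in both populations, 5 in fetal cells alone and 6 in adult cells alone. Its counts were 302 fetal and 274 adult (scaled log2 ratio -0.01) although FPKM was 24.0 in fetal and 2.40 in adult cells. A large expression difference thus went with nearly even counts summed over these bins, though not at each bin. The bin 178 kb away had 57 fetal and 20 adult counts, while 6 contacts were called in adult cells alone.

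Cell cycle and growth genes gave 14 of 17 promoters with such a contact in batch 1 (82.4%, against 58.5% of all promoters) and 9 with at least 5 (52.9%, against 15.4%). Of their 102 contacts 54 (52.9%, against 30.8%) were called in both populations. Myc, the growth-promoting transcription factor gene, met bins only far away. Myc_1 had 14 contacts 1618 to 1736 kb away, all on the side of higher coordinates, 11 called in both, with 196 fetal and 251 adult counts at 37.1 and 35.2 FPKM. The strongest, 1664 kb away, had 25 fetal and 40 adult counts with scores of 18.2 and 34.5. The second Myc promoter had 11 contacts over 1624 to 1734 kb, 8 in both, with 113 and 140 counts. An enhancer cluster far downstream of Myc is known to act in blood stem cells. In batch 1 Mycn had 13 contacts with 96 and 138 counts, Mycn_1 9 with 70 and 63, Ccnd2, a G1 cyclin gene, 10 with 185 and 155, Ccnd1 8 with 225 and 188, Cdkn1c 8 with 142 and 129, and Cdkn1a, the p21 inhibitor gene, 5 with 112 and 122. Igf2_2, a promoter of the fetal growth factor gene, had 11 (2 both, 6 fetal, 3 adult) with 110 and 90 counts, a scaled log2 ratio of 0.05, at 20.6 and 0.54 FPKM. Igf2_1, another promoter of that gene, had 3, all fetal-specific, with 26 and 6 counts and a scaled ratio of 1.72. In batch 2, 3 of 4 promoters of this list had a contact (75.0%, against 51.5% of all promoters) and none had 5, where 13.5% of all promoters did. Of their 5 contacts 1 (20.0%, against 43.4%) was called in both populations.

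Immediate early and stress response genes, many of which are transcribed within minutes of a stimulus, included several with similar counts in both populations at very different expression. In batch 1, 8 of 9 promoters had a contact (88.9%, against 58.5% of all promoters) and 5 had at least 5 (55.6%, against 15.4%), and all 8 had higher FPKM in adult cells, while their median log2 count ratio was -0.04 scaled and 0.20 unscaled. Fos had 9 contacts, 7 in both populations, 2 in fetal cells alone and 0 in adult cells alone, with 227 fetal and 199 adult counts at 0.09 FPKM in fetal and 62.3 in adult cells. Jun had 13 (7 both, 3 fetal, 3 adult) with 163 and 138 counts at 2.18 and 109 FPKM. Dusp1, a phosphatase gene that ends MAP kinase signalling, had 7 (3 both, 2 fetal, 2 adult) with 278 and 285 counts at 2.43 and 43.1 FPKM. Ier2 had 7 (1 both, 3 fetal, 3 adult) with 121 and 105 counts at 9.15 and 41.8 FPKM. Foxo3, given above, leaned to adult counts at nearly equal FPKM, and Zfp36 had a single contact with 150 fetal and 80 adult counts (0.67) at 2.94 and 27.4 FPKM. The bins met by Fos had counts as high in fetal cells, where the gene's own FPKM was near 0, as in adult cells. In batch 2 both captured promoters of this list had a contact, where 51.5% of all promoters did, with a median log2 count ratio of -0.53 scaled and -0.38 unscaled. Btg1, an antiproliferative gene, had 6 with 104 and 137 counts at 1.69 and 4.73 FPKM.

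In batch 1 few cytokine receptor and surface protein genes met many such bins. There 6 of 14 promoters had a contact (42.9%, against 58.5% of all promoters) and 1 had at least 5 (7.14%, against 15.4%). This was Itga4, an integrin gene of HSC homing, with 6 contacts, 86 fetal and 58 adult counts and 10.9 and 8.50 FPKM. Kit had 3, and Cxcr4 and Flt3 had 2 each. In batch 2, 2 of 5 promoters had a contact, with 7 at Cd9, a tetraspanin gene of HSCs and platelets (5 both, 1 fetal, 1 adult, 410 and 405 counts at 9.60 and 41.4 FPKM).

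Some bins were met by several genes, each in a separate contact. Of the 5479 bins, 1227 (22.4%, 21.3 to 23.5) were met by at least 2 captured genes over both batches, against 11.5% (11.1 to 11.8) of unmarked bins and 17.5% of open bins with no active mark, and 82 were met by at least 4. Bins active in 1 population were nearer, at 20.4% (18.9 to 22.0) for fetal cells only, an interval that overlapped, and 19.5% (17.8 to 21.2) for adult cells only. The counts of bins that follow are summed over both batches, although batch 2 had more counts per contact. The bins chr7:133844001-133846001 and chr7:133846001-133848001 were each met by 8 genes. Both met Aldoa, a glycolytic enzyme gene, Cln3, Gdpd3, Ino80e, Ppp4c, Tufm and Ypel3, the former also Nupr1 and the latter also Spn, with 360 fetal and 247 adult counts and with 298 and 198. Bin chr8:87246001-87248001 was met by 7 genes, Asf1b, BC056474, Farsa, Ier2, Klf1, Nfix and Samd1, with 362 and 257 counts, of which Nfix in batch 2 gave 215 and 187. It is the strongest bin of Nfix described above. It was met, in separate contacts, by a gene higher in fetal FPKM (Klf1) and by genes higher in adult FPKM (Nfix and Ier2). The contact of Klf1 was called in fetal cells alone, that of Ier2 in adult cells alone and that of Nfix in both. Bins chr11:106280001-106282001 (Ddx5, Ern1, Gm885, Psmc5, Smarcd2, Tcam1 and Tex2, 125 and 107 counts) and chr3:90096001-90098001 (2500003M10Rik, Dennd4b, Ilf2, Rab13, Rps27, Slc39a1 and Snapin, 291 and 199 counts) also met 7 genes each. Capture density differs along the genome, and its part in these numbers was not tested.

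Many bins lay next to another of the kind. Joined end to end, the 5479 bins made 3647 runs, of which 2132 (58.5% of runs, 38.9% of bins) were a single bin and 190 (5.21%) had at least 3. The other 3347 bins adjoined at least 1 more. The longest runs were 8 bins (16 kb), at chr10:40234001-40250001 (met by Cdk19 and Rpf2, 405 fetal and 440 adult counts), chr7:134242001-134258001 (Aldoa and Ino80e, 179 and 189) and chr2:33698001-33714001 (Fam125b, 603 and 479). These counts are summed over both batches.

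Open chromatin went with the enhancer mark in most of these contacts. The bin was open in both populations for 83.5% of contacts in batch 1 and 85.2% in batch 2, and in neither for 7.39% and 6.64%. Contacts whose bin was open in both were called in both populations in 32.1% (30.5 to 33.7) and 44.2% (42.4 to 46.1) of cases, against 22.7% (18.1 to 27.8) and 35.3% (29.0 to 42.0) where it was open in neither. A captured gene lay between promoter and bin for 41.9% of contacts in batch 1 and 31.2% in batch 2, close to 39.4% and 32.6% at unmarked bins. The contacting gene was the nearest captured one for 38.9% and 50.7%, against 38.3% and 46.8%.

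Bins in contact lists of both batches allow a limited check across batches, mostly through different promoters. Among the 699 such bins, 198 were called in both populations in each batch, 46 were fetal-specific in each and 70 adult-specific in each, while 50 were fetal-specific in batch 1 and adult-specific in batch 2 and 49 the reverse. Over these bins the log2 count ratios of the batches had Spearman's rho of 0.10 and Pearson's r of 0.08, a weak relation given as a description. Of the 19 fragments captured in both batches, 11 had contacts of this kind, 28 in batch 1 and 29 in batch 2. Of these, 17 were the same contact (60.7% and 58.6%), of which 8 had the same class, 5 of them called in both populations each time, and 1 had opposite classes.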

How the data were processed

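Promoter Capture-C of fetal and adult HSCs was taken from 1 deposited table of contacts called with LiMACC, as the authors named the caller. Per the submitters' processing notes, the build was mm9 and the tools included Trim Galore 0.41 and Bowtie2 2.2.2, with their roles not given in the sources used here. The deposited count is a whole number for each contact, population and batch, and whether it sums or averages the 2 libraries is not stated. The deposited score is 0 where a contact was not called. Its lowest positive value was 1.3 in batch 1 and 2.0 in batch 2, and its scale is not stated. FPKM values per promoter and the marks of 0 or 1 for enhancers, promoters and open chromatin were deposited by the authors from other assays, with methods not given in the sources used here. Summed counts over listed within-chromosome contacts were 892529 fetal and 759999 adult in batch 1, and 2014162 and 1813689 in batch 2. These totals cover listed contacts only and are no library depths, which are unknown here.

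Distance is taken between the midpoints of promoter fragment and bin. The 95% intervals of shares are exact (Clopper-Pearson) and reflect counting error alone, and the table gives no molecular identifiers. Count ratios used a pseudocount of 1, and expression ratios the log2 of FPKM + 1, so that changes at low FPKM are understated. No test over samples was possible. The named genes follow a rule: per batch the 8 promoters with the most contacts, the 4 with the highest and the 4 with the lowest scaled count ratio among those with at least 5, the 5 contacts with the highest lower score, the 5 bins met by the most genes, and every gene of 4 lists with at least 5 contacts. Some genes that these rules or lists name are not reported here. The members, lists and rules were chosen with earlier results of these data known. All columns of values belonged to fetal or adult HSCs. Python 3.11.15, pandas 2.3.3, numpy 2.4.6, SciPy 1.17.1 and matplotlib 3.10.9 were used, and the counting steps were tested on simulated data.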

Additional observations from a re-analysis of the deposited data

Results flagged for a closer look

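Outside the within-chromosome contacts, 13 of the 1070 listed contacts between chromosomes met a bin active as an enhancer in both populations (1.21%, against 8.41% of contacts within a chromosome). They are given because no comparison above used them, and their number is above the limit of 3 that a count of 0 allows. They came from 11 promoters, with 5 called in both populations, 6 in fetal cells alone and 2 in adult cells alone. BC056474_1 had 570 fetal and 70 adult counts in a single contact.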

How the results depend on the processing

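No paired analysis was possible because the table holds 1 value per population and batch, and leaving out replicates was not run for the same reason. Of the values recomputed under other settings, 74 moved by less than their counting interval, or stayed within 1.5 times for counts, and 26 moved by more. A score 1 unit above the smallest lowered contacts called in fetal and adult cells to 1158 and 1305 in batch 1 and to 1415 and 1558 in batch 2. Merging bins within 5 kb gave 1524 and 1517 in batch 2. Over contacts passing the stricter score in at least 1 population, 52.9% and 61.3% were called in both. The fetal-specific share of batch 2 became 44.1% at the stricter score. Median distance became 168 and 96.0 kb on merging, and 82.3 kb in batch 2 at the stricter score. The median log2 count ratio of batch 1 was 0.00 without scaling (a setting chosen after seeing the data), -0.14 with the median of all contacts as zero, -0.13 without contacts of at least 1000 counts and -0.078 against other contacts of the same distance class. In batch 2, where the median was -0.01, these were 0.14, a turn of sign in a value that was not tested, -0.082, -0.047 and -0.065. The median log2 FPKM ratio of promoters with such a contact was 0.00 in batch 1 and -0.57 over those marked as differentially expressed, and -0.39 in batch 2 and -0.75 with a pseudocount of 0.1. Over those marked as differentially expressed it stayed at -0.39 in batch 2 with an identical interval. That setting appears to have left out no promoter there, so it could not move the value. Of the 8 promoters with the most contacts, 4 and 5 stayed among the 8 at the stricter score and 5 and 4 on merging, in batches 1 and 2. The causes were not tested. The fetal-specific shares at genes higher in fetal or adult cells kept within their intervals under all 6 settings tried for each, which were chosen after seeing the data and include leaving out the promoter with the most contacts specific to a population. The strength of a count ratio is limited by depth, with a median of 10 counts per contact in batch 1.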
